A study of Mus musculus with 22 samples.

Results

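The genes followed here are the serum amyloid A genes Saa2 and Saa3, the serum amyloid A pseudogene Saa-ps, and Apcs, which encodes serum amyloid P, a pentraxin. They were found by symbol in the array's probe table, among probe sets that carry 1 symbol, and are 4 of 8251 genes measured and 5 of 10833 such probe sets. Each gene was read from its probe set with the highest mean. Values are log2 expression in mouse liver on 22 Affymetrix 3-prime arrays, so a difference of 1 is a doubling of the signal.

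All mice lacked interferon-gamma. SOCS1-/-IFNg-/- mice also lacked SOCS1, a suppressor of cytokine signalling that is induced by interferon-gamma and binds JAK kinases, while IFNg-/- mice had it. Mice of both genotypes received 4 µg of recombinant interferon-gamma in 100 µl into the abdomen, and livers were taken 0.5, 1, 2, 4, 12, 16, 24 and 48 h later. Their controls were livers taken 4 and 12 h after 100 µl of phosphate-buffered saline (PBS) and livers of uninjected mice (untreated). There was 1 array for each genotype, treatment and time, and the labels name neither strain, sex nor age, nor the number of mice behind a liver sample.

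Serum amyloid A proteins are small apolipoproteins that hepatocytes release in the acute phase response and that travel on high density lipoprotein. Saa3 is also transcribed outside hepatocytes, in macrophages and fat among others. Serum amyloid P belongs with C-reactive protein to the pentraxins, which bind microbes, dying cells and amyloid fibrils, and in the mouse it is the pentraxin that responds as an acute phase protein. The known inducers of these genes are interleukin 6, interleukin 1 and tumour necrosis factor, acting through STAT3, NF-kappaB and C/EBP factors.

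The 3 serum amyloid genes lie close together on chromosome 7, where RefSeq (mouse assembly GRCm38.p6) lists Saal1, Saa3, Gm31882, Saa4, Saa-ps, Saa1, Saa2 and Hps5 in this order, and Apcs lies on chromosome 1. The 250 bases before the RefSeq start are printed for the 3 members that have an entry and for Saa1, because the closeness of Saa1 to Saa2 bears on what the Saa2 signal holds. Capitals mark matches on either strand to a C/EBP motif (TTGCNNAA) or a STAT motif (TTCNNNGAA).
Saa2, chr7:46751583-46751832, plus strand: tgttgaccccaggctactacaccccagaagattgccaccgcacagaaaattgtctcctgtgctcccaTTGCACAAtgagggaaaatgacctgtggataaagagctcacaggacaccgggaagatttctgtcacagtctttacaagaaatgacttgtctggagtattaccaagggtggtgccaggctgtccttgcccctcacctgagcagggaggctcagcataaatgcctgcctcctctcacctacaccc
Saa1, chr7:46742981-46743230, minus strand: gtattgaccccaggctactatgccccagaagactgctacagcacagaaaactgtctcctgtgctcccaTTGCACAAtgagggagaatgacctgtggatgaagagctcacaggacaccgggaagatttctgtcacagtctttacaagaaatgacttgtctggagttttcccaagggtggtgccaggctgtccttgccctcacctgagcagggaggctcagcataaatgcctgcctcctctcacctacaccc
Saa3, chr7:46715677-46715926, minus strand: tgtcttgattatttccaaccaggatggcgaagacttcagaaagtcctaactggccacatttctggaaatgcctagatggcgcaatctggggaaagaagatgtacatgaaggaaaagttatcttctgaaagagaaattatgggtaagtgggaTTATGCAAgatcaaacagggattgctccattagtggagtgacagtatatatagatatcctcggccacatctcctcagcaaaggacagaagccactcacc
Apcs, chr1:172895055-172895304, minus strand: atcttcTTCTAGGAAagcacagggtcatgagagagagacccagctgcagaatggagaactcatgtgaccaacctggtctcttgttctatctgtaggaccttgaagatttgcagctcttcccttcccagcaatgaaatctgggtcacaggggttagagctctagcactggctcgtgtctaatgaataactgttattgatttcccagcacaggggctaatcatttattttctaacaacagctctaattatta

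The Saa2 and Saa1 sequences were identical at 238 of 251 aligned positions (94.8%), while every other pair of the 4 shared between 50.0 and 53.3%. The C/EBP motif stood 183 to 176 bases before the start of Saa2 and, with the same letters, 182 to 175 bases before that of Saa1. Saa3 held it 99 to 92 bases before its start, on the opposite strand, and Apcs held the STAT motif 244 to 236 bases before its start. Of 32851 RefSeq promoters of 250 bases, 9.56% held the C/EBP motif and 7.02% the STAT motif, and 7.25% held the NF-kappaB consensus, which was in none of the 4 windows. These are matches of letters only.

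The same closeness limits what the probes can tell apart. Both the Saa2 probe set 103465_f_at and the only Saa-ps probe set, 101306_f_at, carry the ending that Affymetrix gives to probe sets that may cross-hybridize within a gene family. Saa1 had no probe set with a single symbol, and the gene table lists Saa2 as an older name of Saa1 and Saa1 as an older name of Saa2. Signals of Saa1, Saa2 and Saa-ps therefore cannot be told apart with certainty. Over the 22 arrays Saa-ps correlated with Saa2 at Pearson r = 0.939, and it lay below the array median, which was 5.64 to 5.71, on every array, with a highest value of 5.57. Saa2 has a further probe set, 100333_at, without that ending. It followed 103465_f_at closely (r = 0.977) over a narrower range, 3.33 against 5.6 on the log2 scale.

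As a check of the deletion, Socs1 lay between 6.57 and 7.02 in SOCS1-/-IFNg-/- livers, and in IFNg-/- livers between 6.68 and 9.21, with the highest value at 2 h. The hepatocyte marker Alb (albumin) lay between 13.11 and 13.35 on all arrays. Livers were bulk samples, in which fewer cells of a type and less RNA per cell cannot be told apart.

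Saa2 had the widest range of the 4 genes. On the SOCS1-/-IFNg-/- arrays it was 7.62 untreated, 10.06 and 9.18 at 4 and 12 h after PBS, and 7.75, 8.53, 10.71, 10.69, 12.00, 12.55, 12.15 and 8.76 at 0.5, 1, 2, 4, 12, 16, 24 and 48 h after interferon-gamma. In IFNg-/- livers Saa2 was 7.75 untreated, 8.54 and 8.58 after PBS, and 6.95, 8.39, 10.75, 11.96, 11.57, 11.27, 11.79 and 9.96 after interferon-gamma, in the same order of times. Saa2 thus passed every control of its own genotype from 2 h to 24 h in both genotypes. It peaked at 16 h in SOCS1-/-IFNg-/- livers and at 4 h in IFNg-/- livers. At 48 h it was back among the controls of its own genotype in SOCS1-/-IFNg-/- livers alone.

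On the SOCS1-/-IFNg-/- arrays Saa3 was 5.98 untreated, 6.16 and 6.99 at 4 and 12 h after PBS, and 6.11, 6.15, 6.54, 7.04, 9.27, 10.58, 9.12 and 8.00 from 0.5 to 48 h after interferon-gamma. The IFNg-/- arrays gave 5.82 untreated, 6.17 and 7.2 after PBS, and 5.72, 5.99, 6.96, 9.23, 8.89, 8.09, 9.48 and 7.97 after interferon-gamma. In both genotypes Saa3 was above its own controls from 4 h on, at 4 h in SOCS1-/-IFNg-/- livers by little (7.04 against a highest control of 6.99), and it stayed above them at 48 h. It is the only one of the 4 genes above the controls of both genotypes at 48 h.

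The Saa-ps signal was low throughout. It was 3.60 untreated, 4.14 and 3.89 after PBS, and 3.80, 3.88, 4.39, 4.28, 5.57, 5.30, 5.21 and 3.58 after interferon-gamma in SOCS1-/-IFNg-/- livers. In IFNg-/- livers it was 3.72 untreated, 3.85 and 3.67 after PBS, and 3.27, 3.84, 4.57, 5.57, 5.05, 4.52, 5.27 and 4.01 after interferon-gamma. Like Saa2 it was above the controls of its genotype from 2 h to 24 h in both genotypes, with peaks at 12 h in SOCS1-/-IFNg-/- and at 4 h in IFNg-/- livers.

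Apcs, the pentraxin gene, changed over a smaller range. It was 8.04 untreated, 9.23 and 9.15 after PBS, and 7.92, 8.72, 9.26, 9.82, 10.40, 10.27, 9.25 and 8.36 after interferon-gamma on the SOCS1-/-IFNg-/- arrays. The IFNg-/- values were 7.56 untreated, 8.02 and 8.70 after PBS, and 7.61, 8.11, 8.77, 9.49, 8.85, 9.22, 8.97 and 8.23 after interferon-gamma. It stood above the controls of its genotype from 2 h to 24 h and among them at 48 h in both. The margin was small at 2 and 24 h in SOCS1-/-IFNg-/- livers (9.26 and 9.25 against a highest control of 9.23) and at 2 h in IFNg-/- livers (8.77 against 8.70). The peak came at 12 h in SOCS1-/-IFNg-/- livers and at 4 h in IFNg-/- livers.

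**Figure D1:**
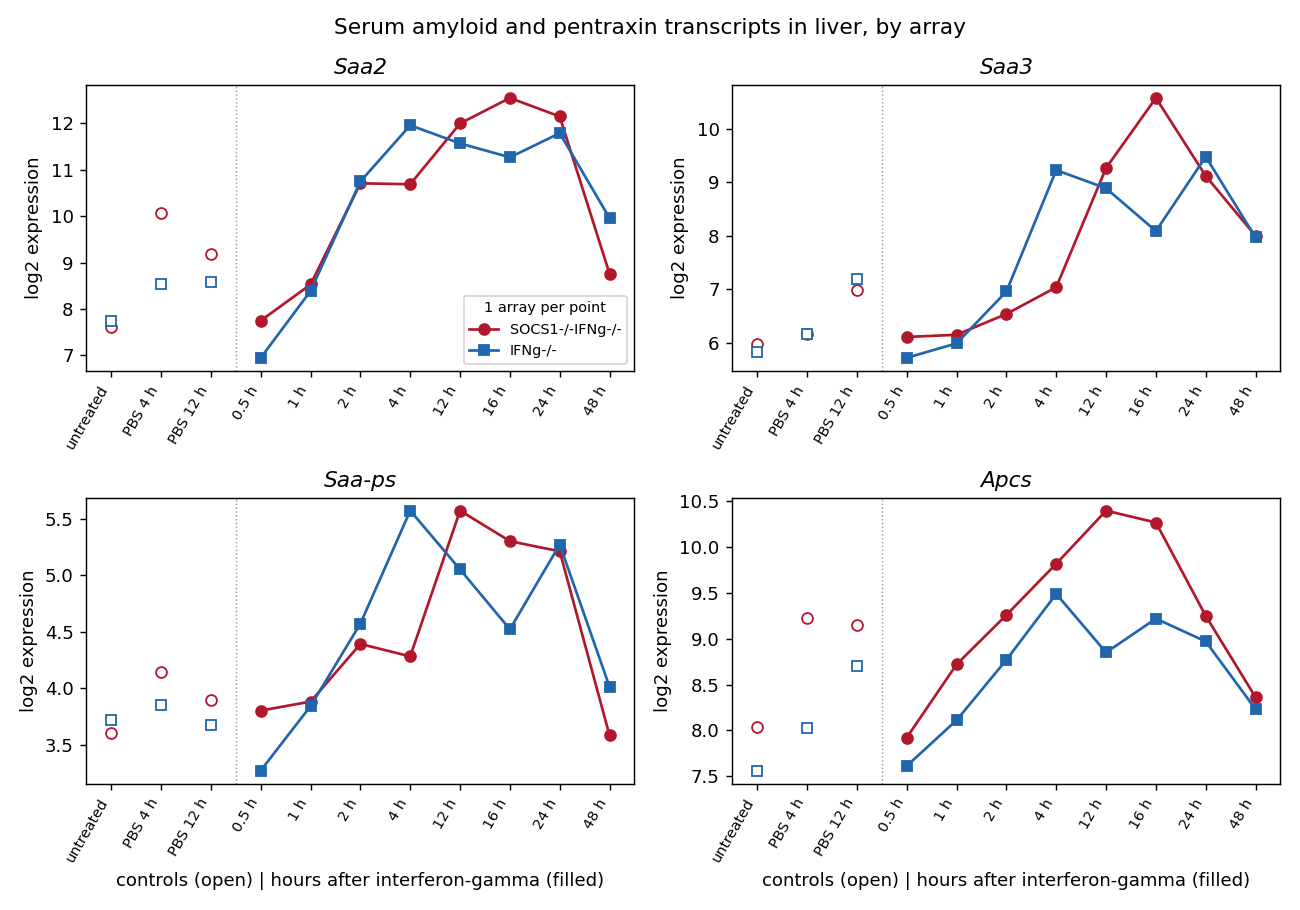
Log2 expression (vertical axis) of Saa2, Saa3, Saa-ps and Apcs on each array, with controls as open symbols left of the dotted line and hours after interferon-gamma as filled symbols joined by lines. SOCS1-/-IFNg-/- arrays are red circles and IFNg-/- arrays blue squares, 1 array per point. The 3 serum amyloid genes are highest between 4 and 24 h, and at 48 h only Saa3 is above the controls in both genotypes, at 8.00 in SOCS1-/-IFNg-/- and 7.97 in IFNg-/- livers.

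The response at each time was tested with limma as the mean of both genotypes minus the mean of the 6 control arrays, adjusted over all 8251 genes. A gene was counted as risen or fallen at an adjusted p under 0.05. The genotypes stood in for replicates, so these p-values measure the spread between 2 arrays that differ in genotype. PBS livers exist at 4 and 12 h alone, and at the other times interferon-gamma and injection cannot be told apart.

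At 0.5 h none of the 4 genes changed, and none of the 8251 genes did (0.0%; 478 had an unadjusted p under 0.05). Saa2 was -1.27 ± 0.42 (log2 ± SE, adjusted p = 0.577) and Apcs -0.69 ± 0.22 (adjusted p = 0.55), and both were below the PBS arrays of either time in both genotypes. At 1 h, when 13 genes rose (0.158%), no member was among them, and the 4 differences lay between -0.32 and 0.05. The control mean behind these values includes the PBS arrays. Against the untreated liver of the same genotype, Saa2 at 0.5 h was 0.13 in SOCS1-/-IFNg-/- and -0.79 in IFNg-/- livers, and Apcs -0.12 and 0.05. At 1 h Saa2 was 0.91 and 0.65 above untreated, and Apcs 0.68 and 0.55. These are differences between single arrays and were not tested.

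At 2 h Saa2 rose by 2.11 ± 0.42 (4.32-fold; limma, adjusted p = 0.0167), when 1.24% of all genes rose. Saa-ps (0.67 ± 0.27, adjusted p = 0.337), Apcs (0.56 ± 0.22, adjusted p = 0.3) and Saa3 (0.36 ± 0.51, adjusted p = 0.901) did not pass the test at that time. With array weights Saa-ps was called at 2 h as well (0.67 ± 0.18, adjusted p = 0.0426). Genes called at 2 h, risen or fallen, ran from 86 to 420 over the alternatives, against 137. The 2 h arrays of Saa2, at 10.71 and 10.75, were both above all 6 control arrays, as were those of 5.9% of all genes. Without the untreated arrays among the controls the 2 h difference of Saa2 was 1.64 ± 0.45 (adjusted p = 0.1), and with its other probe set 1.29 ± 0.33 (adjusted p = 0.0653).

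By 4 h 3 of the 4 genes had risen, against 3.14% of all genes. Saa2 rose by 2.71 ± 0.42 (6.53-fold; limma, adjusted p = 0.00171), Apcs by 1.20 ± 0.22 (2.30-fold, adjusted p = 0.00456) and Saa-ps by 1.12 ± 0.27 (2.17-fold, adjusted p = 0.0275). Saa3 was 1.75 ± 0.51 (adjusted p = 0.0642), with 7.04 in the SOCS1-/-IFNg-/- liver and 9.23 in the IFNg-/- liver. With array weights only Saa2 was called at 4 h, with an adjusted p of 0.0276 against 0.0855 for Apcs and 0.139 for Saa-ps. With the untreated arrays left out of the whole fit the same single member was called, and trend and robust fitting lost Saa-ps at 4 h (adjusted p = 0.0721) and Saa2 at 2 h (adjusted p = 0.081). At 4 h both arrays of Saa2, Saa-ps and Apcs were above all 6 control arrays, as were those of 5.44% of all genes, and Saa3 overlapped.

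All 4 genes rose at 12 h, when 1.31% of all genes did. Saa2 rose by 3.16 ± 0.42 (8.96-fold; limma, adjusted p = 0.00105), Saa3 by 2.70 ± 0.51 (6.48-fold, adjusted p = 0.0128), Saa-ps by 1.5 ± 0.27 (2.83-fold, adjusted p = 0.0097) and Apcs by 1.18 ± 0.22 (2.26-fold, adjusted p = 0.0112). By size, Saa2 was the 4th and Saa3 the 7th of all genes at this time.

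The rise of Saa2 held through 16 h (3.29 ± 0.42, adjusted p = 0.000828) and 24 h (3.35 ± 0.42, or 10.2-fold; limma, adjusted p = 0.0012). Saa3 rose by 2.95 ± 0.51 at 16 h (adjusted p = 0.0139) and by 2.91 ± 0.51 at 24 h (adjusted p = 0.0351). Apcs rose at 16 h (1.29 ± 0.22, adjusted p = 0.0119) and was 0.66 ± 0.22 at 24 h (adjusted p = 0.286). Saa-ps was 1.10 ± 0.27 at 16 h (adjusted p = 0.122) and 1.43 ± 0.27 at 24 h (adjusted p = 0.0504). That is 3 of the 4 genes at 16 h and 2 at 24 h, when 0.388% and 0.158% of all genes rose.

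Taking the 12, 16 and 24 h arrays together, all 6 arrays of Saa2 (11.27 to 12.55), of Saa3 (8.09 to 10.58) and of Saa-ps (4.52 to 5.57) lay above all 6 control arrays, whose highest values were 10.06, 7.2 and 4.14. The same held for 0.679% of all genes. Apcs overlapped when the genotypes were pooled, with 8.85 to 10.40 at these times and 7.56 to 9.23 in the controls. Within each genotype it lay above its own controls at these times. Without the untreated arrays among the controls, the calls of Saa3 and Apcs were lost at 12 h and 16 h and that of Saa3 at 24 h, with adjusted p between 0.0518 and 0.145. Those of Saa2 were kept, and its 12 h difference was then 2.69 ± 0.45 (adjusted p = 0.00962). Trend and robust fitting ended all 3 calls of Saa3 (adjusted p between 0.0717 and 0.134), and at 24 h that call was also lost without the PBS 4 h, 0.5, 1, 2 or 48 h arrays (between 0.0535 and 0.126).

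At 48 h no member passed the test, and 1 gene of 8251 did (0.0121%). Saa3 was still 1.60 ± 0.51 above the controls (3.03-fold; limma, adjusted p = 0.516), the 2nd largest difference of all genes at that time, and both its arrays were above all 6 control arrays, as was so for 5.13% of all genes. Saa2 was 0.74 ± 0.42 (adjusted p = 0.843), Saa-ps -0.01 ± 0.27 and Apcs -0.15 ± 0.22. The 2 genotypes were unlike for Saa2 when it was set against the highest control of the same genotype. At 48 h it was 8.76 in the SOCS1-/-IFNg-/- liver, 1.31 below that control (10.06, PBS 4 h). In the IFNg-/- liver it was 9.96, 1.38 above that control (8.58, PBS 12 h). SOCS1-/-IFNg-/- minus IFNg-/-, the 48 h arrays themselves differed by -1.20, and both lay below 10.06.

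Set directly against 12 to 24 h, 3 of the 4 genes fell by 48 h, when 0.57% of all genes fell. Saa2 fell by 2.53 ± 0.42 on the log2 scale (limma, adjusted p = 0.00733), Saa-ps by 1.36 ± 0.27 (adjusted p = 0.0224) and Apcs by 1.20 ± 0.22 (adjusted p = 0.0112). The call of Saa-ps was lost without the 12 h arrays (adjusted p = 0.059) and with trend and robust fitting (0.0779). Saa3 was -1.25 ± 0.51 (adjusted p = 0.333). The 48 h minus 12 to 24 h difference of Saa2 was -3.48 in SOCS1-/-IFNg-/- livers and -1.58 in IFNg-/- livers, and that of Saa3 -1.66 and -0.85.

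**Figure D2:**
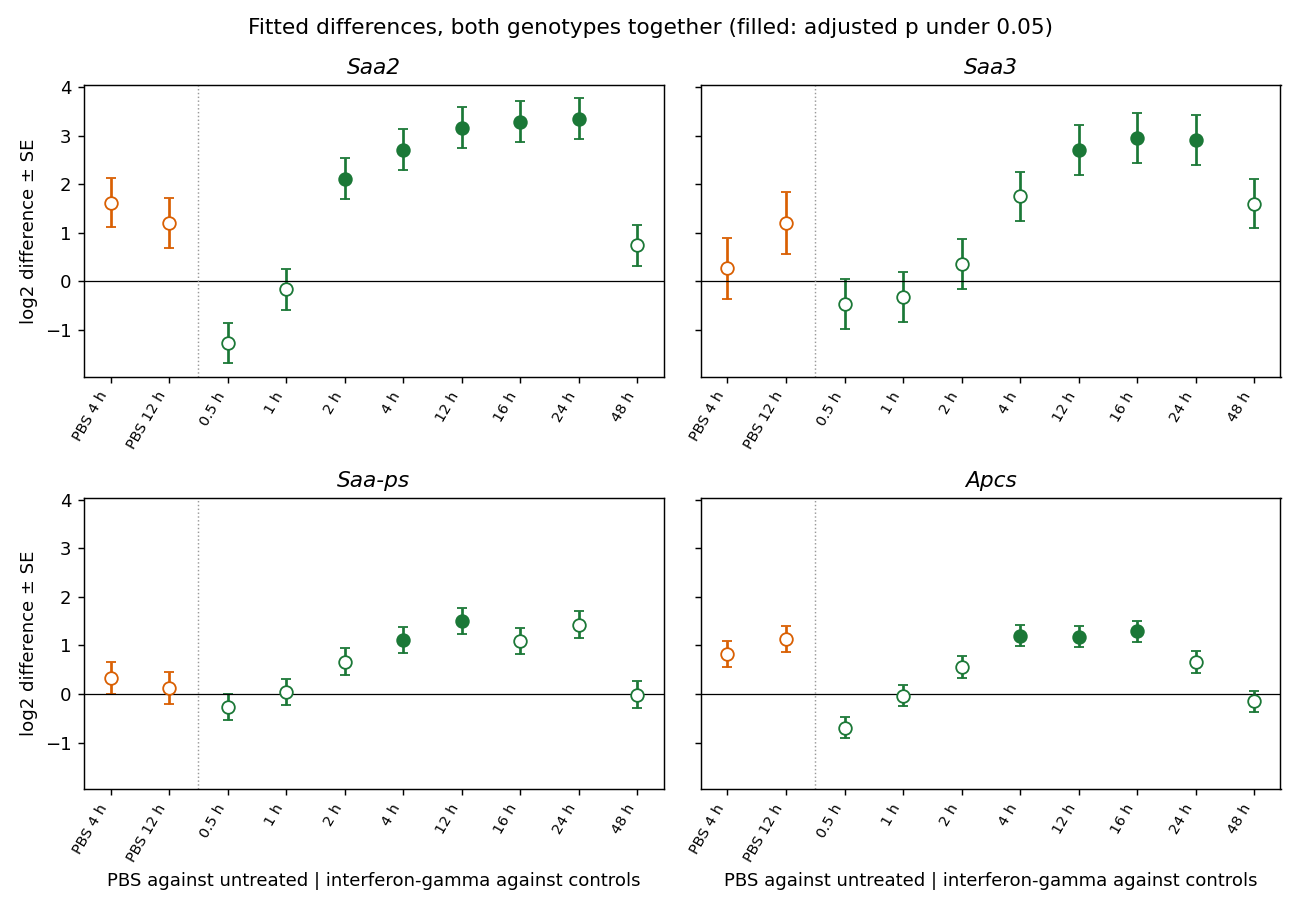
Fitted log2 differences with their standard errors (vertical axis), both genotypes together, for PBS against untreated livers (orange, left of the dotted line) and for interferon-gamma against the 6 control arrays at each time (green). Filled points passed limma's test over all genes. Saa2 is filled from 2 to 24 h and reaches 3.35 at 24 h, Saa3 is filled from 12 to 24 h, Apcs from 4 to 16 h, Saa-ps at 4 and 12 h, and no PBS difference is filled.

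The conditions were also put in order by the mean of both genotypes. Saa2 was highest at 24 h (11.97), 16 h (11.91), 12 h (11.78) and 4 h (11.33), and each of these gaps was smaller than the standard error of a difference between 2 conditions, 0.51. The 2 h arrays (10.73) followed by more than that error, and then, 1.37 lower, came 48 h (9.36), PBS 4 h (9.30) and PBS 12 h (8.88), which did not differ from one another in turn beyond it. At the bottom were 1 h (8.46), untreated (7.68) and 0.5 h (7.35).

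For Saa3 the order was 16 h (9.34), 24 h (9.30) and 12 h (9.08), within the error of 0.63, then beyond it 4 h (8.13) and 48 h (7.99), which were within it of each other, and beyond it again PBS 12 h (7.10) and 2 h (6.75). PBS 4 h, 1 h, 0.5 h and untreated livers lay between 6.17 and 5.90, each within the error of the next. Saa-ps was highest at 12 h (5.31), 24 h (5.24), 4 h (4.93) and 16 h (4.91), each within its error of 0.33 of the next, followed beyond the error by 2 h (4.48) and then by PBS 4 h (4.00). Below that, 1 h, 48 h, PBS 12 h, untreated and 0.5 h livers lay between 3.86 and 3.54 with gaps inside the error.

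Apcs had 16 h (9.74), 4 h (9.65) and 12 h (9.63) on top, and untreated (7.80) and 0.5 h (7.76) livers at the bottom. Its PBS 12 h mean of 8.93 was within the error of 0.27 of the 2 h mean of 9.01.

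PBS alone was followed by higher values of part of these genes than in untreated livers. At 4 h after PBS, Saa2 was 10.06 in the SOCS1-/-IFNg-/- liver, against 7.62 in the untreated liver of that genotype, a difference of 2.45. In IFNg-/- livers it was 8.54 after PBS, against 7.75 untreated, a difference of 0.79. Fitted over both genotypes the difference was 1.62 ± 0.51 (limma, adjusted p = 0.453), the 5th largest of all genes, and 0 members passed where 2 genes did (0.0242%). Apcs was 9.23 after PBS and 8.04 untreated in SOCS1-/-IFNg-/- livers, and 8.02 and 7.56 in IFNg-/- livers (fitted 0.83 ± 0.27, adjusted p = 0.453). Saa3 and Saa-ps were 0.27 ± 0.63 and 0.34 ± 0.33.

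At 12 h after PBS, Saa3 was 6.99 in the SOCS1-/-IFNg-/- liver, against 5.98 untreated, and 7.2 in the IFNg-/- liver, against 5.82 untreated (fitted 1.20 ± 0.63, limma, adjusted p = 0.497). Saa2 was 1.20 ± 0.51 (adjusted p = 0.408) and Apcs 1.13 ± 0.27 (adjusted p = 0.173), with differences of 1.12 in SOCS1-/-IFNg-/- and 1.14 in IFNg-/- livers. Again 0 members passed, against 9 genes (0.109%). With array weights Apcs did (limma, adjusted p = 0.0166), and the genes called in this comparison ran from 7 to 198 over the alternatives. Saa-ps was 0.12 ± 0.33. All 4 PBS arrays lay above both untreated arrays for Saa2 and Saa3, as they did for 10.1% of all genes, and for Apcs and Saa-ps they overlapped. The overlap of Apcs was between genotypes. Within SOCS1-/-IFNg-/- livers it was 9.23 and 9.15 after PBS against 8.04, and within IFNg-/- livers 8.02 and 8.70 against 7.56. Unadjusted limma p-values were under 0.05 for Saa2 and Apcs at both PBS times, as for 670 of 8251 genes at 4 h and 921 at 12 h.

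Since PBS livers had these values, interferon-gamma was also set against PBS of the same time. At 4 h none of the 4 genes passed, when 0.994% of all genes rose. All 4 had an unadjusted limma p under 0.05, as did 1001 of the 8251 genes. The fitted differences were 2.03 ± 0.51 for Saa2 (limma, adjusted p = 0.0717), 1.97 ± 0.63 for Saa3 (adjusted p = 0.168), 1.03 ± 0.27 for Apcs (adjusted p = 0.0782) and 0.93 ± 0.33 for Saa-ps (adjusted p = 0.225). The genotypes were far apart. Saa2 was 10.69 after interferon-gamma and 10.06 after PBS in SOCS1-/-IFNg-/- livers, a difference of 0.63, and 11.96 and 8.54 in IFNg-/- livers, a difference of 3.43. Saa3 differed by 0.88 in SOCS1-/-IFNg-/- and by 3.06 in IFNg-/- livers.

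At 12 h Saa2 rose above PBS by 2.91 ± 0.51 (7.49-fold; limma, adjusted p = 0.0423), by 2.82 in SOCS1-/-IFNg-/- and 2.99 in IFNg-/- livers, and was 1 of 9 genes that did (0.109%). Saa3 was 1.99 ± 0.63 (adjusted p = 0.393), Saa-ps 1.53 ± 0.33 (adjusted p = 0.18) and Apcs 0.70 ± 0.27 (adjusted p = 0.536). The Apcs difference was 1.25 in SOCS1-/-IFNg-/- and 0.16 in IFNg-/- livers. The call of Saa2 rests on a narrow margin. It was lost when the untreated, 0.5, 1, 2 or 24 h arrays were left out of the fit, with trend and robust fitting, and with its other probe set, which gave 2.10 ± 0.40 (adjusted p = 0.087). The adjusted p ran between 0.00489 and 0.281 over all alternatives.

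**Figure D3:**
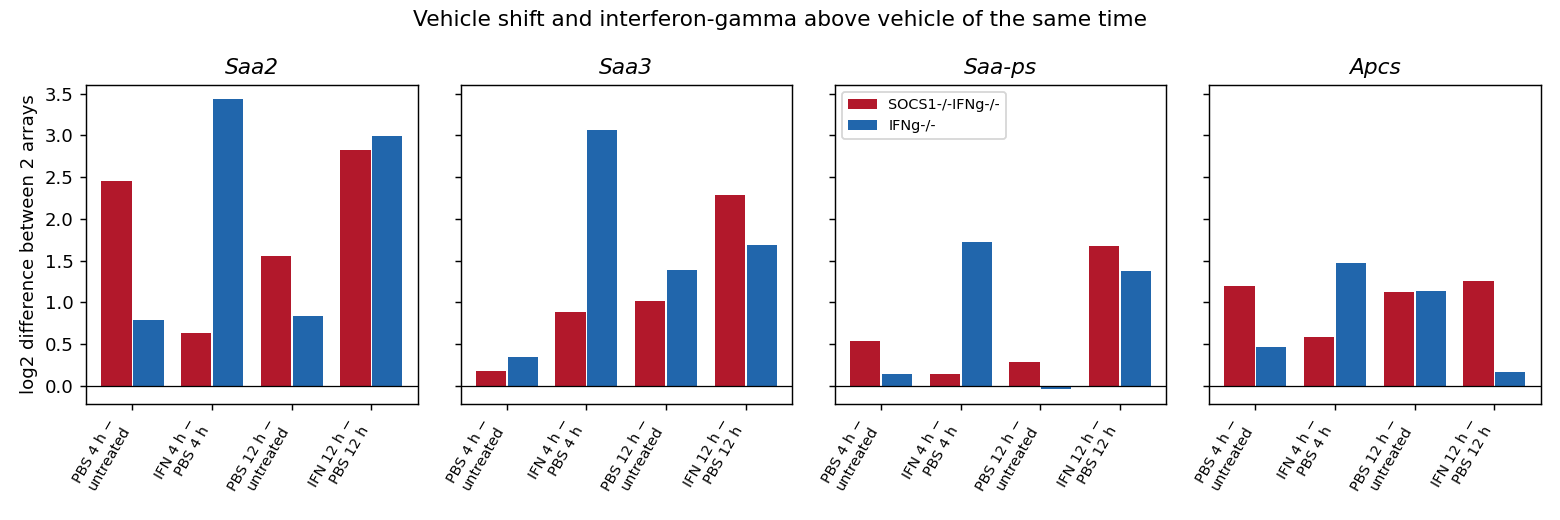
Log2 differences between 2 arrays (vertical axis) in SOCS1-/-IFNg-/- (red) and IFNg-/- livers (blue), for PBS minus untreated and interferon-gamma (IFN) minus PBS at 4 and 12 h. Each bar is 1 difference with no replicate. For Saa2 the 4 h PBS bar is 2.45 in SOCS1-/-IFNg-/- and 0.79 in IFNg-/- livers, and the 4 h interferon-gamma bar 0.63 and 3.43, while the 12 h interferon-gamma bars are 2.82 and 2.99.

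The genotypes were compared over the 11 pairs of arrays of the same treatment and time. Apcs was higher in SOCS1-/-IFNg-/- livers in 11 of 11 pairs, by 0.13 to 1.55 with a median of 0.48. The fitted difference was 0.62 ± 0.10 (1.54-fold; limma, adjusted p = 0.0274), and 0.17% of all genes were called higher. An exact two-sided sign-flip test over the 11 pairs gave p = 0.000977, the smallest it can give, in a family of 4 such tests. Of all genes, 0.291% were higher in SOCS1-/-IFNg-/- livers in all 11 pairs. In the controls the Apcs difference was 0.71 ± 0.19 and was not called (limma, adjusted p = 0.754). There 1 gene was called (0.0121%), and it was lower in SOCS1-/-IFNg-/- livers. In the 12 to 24 h pairs the Apcs difference was larger than in the controls by 0.25 ± 0.27 (adjusted p = 0.844). The adjusted p of the Apcs difference over all pairs ran between 0.0046 and 0.906 over the alternatives. The call was lost without the 1, 2 or 16 h pair (adjusted p between 0.0603 and 0.0751), with trend and robust fitting (0.761), and when arrays were not paired by condition (0.906).

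The serum amyloid genes had no such constant difference. Saa2 was higher in SOCS1-/-IFNg-/- livers in 7 of 11 pairs and lower in 4, with a mean of 0.23 ± 0.88 (SD, n = 11 pairs; exact sign-flip p = 0.41). Saa3 was higher in 6 and lower in 5, with a mean of 0.04 ± 1.08 (exact sign-flip p = 0.837), and Saa-ps likewise, with 0.03 ± 0.56 (exact sign-flip p = 0.883). The pairs ranged from -1.27 to 1.53 for Saa2 and from -2.19 to 2.49 for Saa3. The lowest came at 4 h, where Saa-ps was -1.29 and Apcs 0.32, and the highest, for Saa3, at 16 h, when it was 10.58 in the SOCS1-/-IFNg-/- liver and 8.09 in the IFNg-/- liver.

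**Figure D4:**
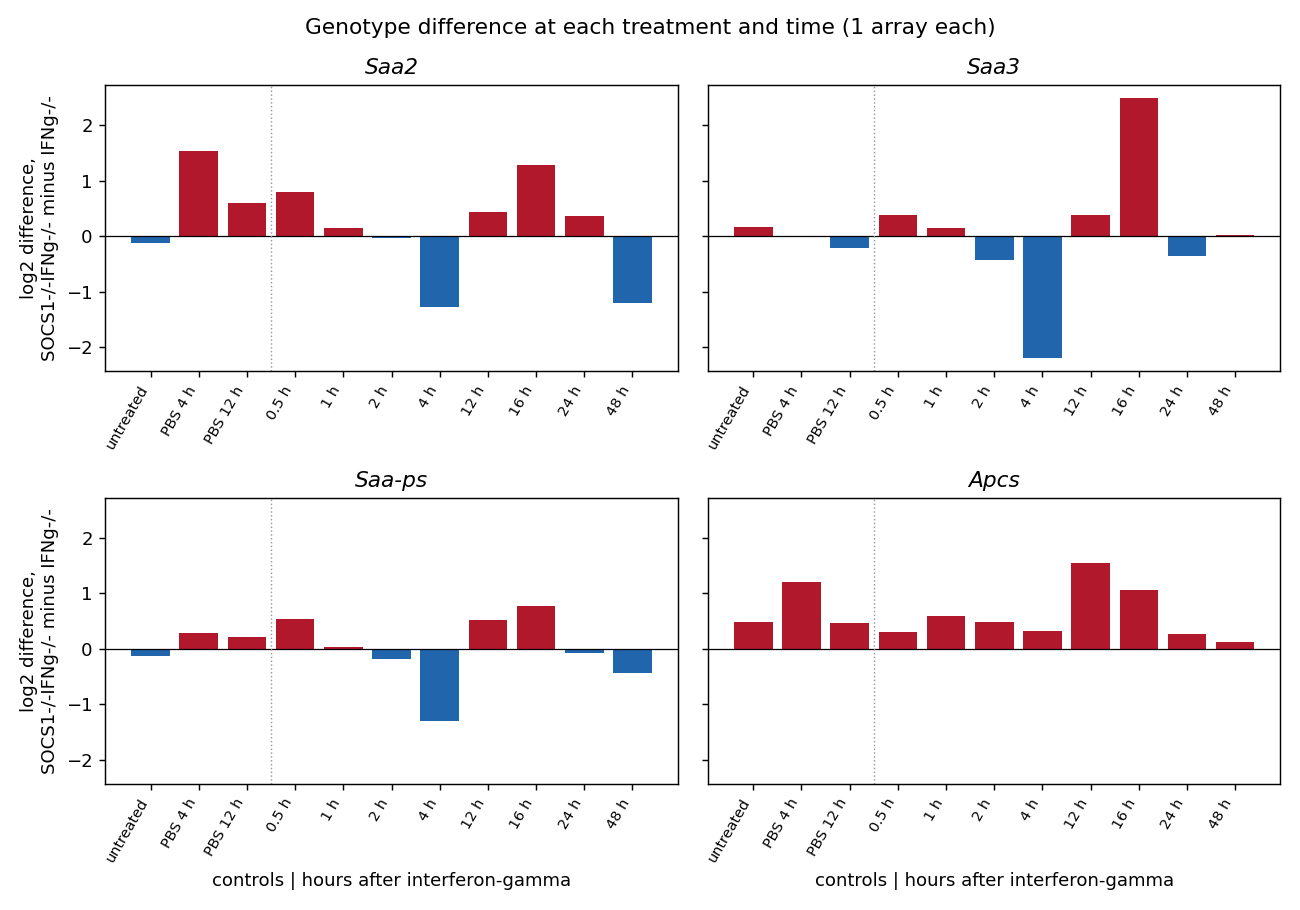
Log2 difference, SOCS1-/-IFNg-/- minus IFNg-/- (vertical axis), at each treatment and time, with controls left of the dotted line; red bars are higher and blue bars lower in SOCS1-/-IFNg-/- livers, 1 array of each genotype behind every bar. Apcs is above 0 in 11 of 11 pairs, while Saa3 reaches 2.49 at 16 h and -2.19 at 4 h.

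The response was also fitted within each genotype. From controls to 12 to 24 h, Saa3 rose by 3.28 ± 0.67 in SOCS1-/-IFNg-/- livers (9.73-fold; limma, adjusted p = 0.0257), and was the one member called there, where 0.291% of all genes rose. Saa2 was 3.28 ± 0.99 (adjusted p = 0.129), Saa-ps 1.49 ± 0.38 (adjusted p = 0.0689) and Apcs 1.17 ± 0.49 (adjusted p = 0.33). In IFNg-/- livers no gene of the 8251 was called (0.0%; 261 had an unadjusted p under 0.05). Saa2 was 3.26 ± 0.99, Saa3 2.42 ± 0.67, Saa-ps 1.20 ± 0.38 and Apcs 0.92 ± 0.49, each with an adjusted p of 1, and the first 3 had an unadjusted p under 0.05.

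The difference between these responses was tested itself, and 0 genes passed (0.0%; 745 at an unadjusted p under 0.05). It was 0.03 ± 0.48 for Saa2 (limma, adjusted p = 0.991), 0.86 ± 0.69 for Saa3 (adjusted p = 0.762), 0.29 ± 0.36 for Saa-ps (adjusted p = 0.864) and 0.25 ± 0.27 for Apcs (adjusted p = 0.844). At 0.5 to 4 h the differences, again with 0 genes called (0.0%; 251 at an unadjusted p under 0.05), were -0.76 ± 0.45 for Saa2, -0.50 ± 0.64 for Saa3, -0.35 ± 0.34 for Saa-ps and -0.28 ± 0.26 for Apcs (adjusted p = 0.998 each). The call of Saa3 in SOCS1-/-IFNg-/- livers was lost without the 16 h array, where the rise was 2.82 ± 0.73 (adjusted p = 0.121), and also without the untreated, PBS 4 h, 2 h or 12 h array.

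Relatives of these genes on the array had narrower ranges, and Saa4, Crp and Ptx3 were called in no comparison. Saa4, the member of the family that is made constitutively, lay between 7.47 and 8.87 on SOCS1-/-IFNg-/- arrays and between 7.61 and 8.97 on IFNg-/- arrays, highest at 16 h and at 4 h, the times of the Saa2 peak in each genotype. Crp (C-reactive protein) lay between 8.50 and 8.84 in SOCS1-/-IFNg-/- and between 8.42 and 9.03 in IFNg-/- livers. Ptx3, a long pentraxin made by myeloid and stromal cells, lay between 2.88 and 3.09 in SOCS1-/-IFNg-/- and between 2.93 and 3.29 in IFNg-/- livers, near the lowest value on the arrays, 1.73.

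Among all other genes, those whose pattern was most like that of each member were ranked by Pearson r over the 22 arrays, which share their treatments and their times. Saa2 was most like Lcn2, an iron-binding lipocalin (r = 0.937), then the heme carrier Hpx (0.912), Itih4 (0.895), Lrg1 (0.876) and the orosomucoid Orm1 (0.875). Saa3 was most like Orm2 (0.948), then Tmem176a (0.89), Tmem176b (0.888), Hpx (0.884) and Serping1 (0.875), which encodes the C1 inhibitor. Saa-ps was most like Lcn2 (0.899), Lrg1 (0.892), Orm2 (0.842), the haptoglobin gene Hp (0.837) and Itih4 (0.82). Apcs was most like Orm1 (0.889), Ifitm3 (0.887), the lipopolysaccharide-binding protein gene Lbp (0.884), Plac8 (0.878) and Itih4 (0.877).

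At 4 h Orm2, like Saa3, was lower in the SOCS1-/-IFNg-/- liver (8.27) than in the IFNg-/- liver (9.82), and so were Saa2 and Saa-ps. At 48 h Orm2 was 8.68 and 9.12, above its control means of 8.22 and 7.69. Saa3 was above every control of its genotype at 48 h, whereas Orm2 was set against control means only. Among the members themselves r ran from 0.69 for Saa3 and Apcs to 0.939 for Saa2 and Saa-ps.

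The wider acute phase response was described with lists chosen with earlier results of these data known. Of 39 positive acute phase genes other than the members, 31 were measured. At 2 h 4 of them rose, among them the metallothioneins Mt2 (3.87 ± 0.54) and Mt1 (3.68 ± 0.58), Serpina3n (1.48 ± 0.17), a protease inhibitor, and Il1rn (1.16 ± 0.18), the interleukin 1 receptor antagonist. At 4 h 14 rose, at 12 h 9 rose and 1 fell, at 16 h 7 rose, at 24 h 3 rose, and at 48 h 0 did. Of all genes 1.24% rose at 2 h and 3.14% at 4 h. By 12 h this share was 1.31%, by 16 h 0.388%, by 24 h 0.158% and by 48 h 0.0121%, so calls over all genes were most frequent at 4 h too. The list's median difference was 0.47 at 4 h, 0.26 at 12 h and 0.01 at 48 h, against -0.03, -0.03 and 0 over all genes. By size the 4 largest calls at 12 h were Lcn2 (3.97 ± 0.41), Hamp, the iron hormone hepcidin, which fell by 2.37 ± 0.44, Orm2 (2.24 ± 0.44) and Serpina3n (1.32 ± 0.17). At 24 h the 3 risen genes were Lcn2 (4.50 ± 0.41), Serpina3n (1.51 ± 0.17) and Hp (0.74 ± 0.08).

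Against PBS of the same time, 7 of these 31 genes rose at 4 h and 4 at 12 h, when 0.994% and 0.109% of all genes did. At 12 h they were Lcn2 (3.27 ± 0.51), Serpina3n (1.34 ± 0.20), Lbp (0.94 ± 0.15) and Hp (0.55 ± 0.09). In PBS against untreated livers 0 of 31 were called at either time, with medians of 0.24 at 4 h and 0.21 at 12 h against -0.03 over all genes. At 48 h against 12 to 24 h 6 fell, as 0.57% of all genes did, with Lcn2 (-3.95 ± 0.41), Serpina3n (-1.5 ± 0.17), Lrg1 (-1.26 ± 0.21) and Lbp (-1.14 ± 0.12) the largest. Across the pairs 3 of the 31 were called higher in SOCS1-/-IFNg-/- livers, as were 0.17% of all genes, namely Mt1 (1.38 ± 0.17), Lcn2 (1.01 ± 0.14) and Serpina3n (0.43 ± 0.08).

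Genes of the cytokine signals that induce acute phase genes were read against the same shares of all genes, and their timing was not tested. Of 33 measured of 39, 1 rose at 1 h, Il1b (1.21 ± 0.14), which encodes interleukin 1 beta. At 2 h 4 rose, namely the transcription factor Cebpd (1.64 ± 0.35), the feedback inhibitor Socs3 (1.58 ± 0.18), the oncostatin M receptor Osmr (1.40 ± 0.21) and the adaptor Myd88 (0.97 ± 0.17). At 4 h 12 rose, with the interleukin 1 receptor Il1r1 (1.71 ± 0.22), Socs3 (1.5 ± 0.18), Osmr (1.26 ± 0.21) and Myd88 (1.14 ± 0.17) the largest. At 12 h 1 did, Nfkbib (0.45 ± 0.07), and at 16, 24 and 48 h 0 did. Against PBS at 4 h 7 of the 33 rose, and at 12 h 0, when 0.994% and 0.109% of all genes did.

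Of 17 measured genes of 21 for receptors and partners of serum amyloid A and pentraxins, 3 rose at 4 h, beside 3.14% of all genes. They were the complement gene C1qb (0.56 ± 0.13), the antibody receptor Fcgr1 (0.41 ± 0.10) and Cd14 (0.40 ± 0.07), which is on the acute phase list as well, and 0 rose at the other times. Of 19 measured genes of 23 for high density lipoprotein, the carrier of serum amyloid A, 1 rose at 4 h, the cholesterol exporter Abca1 (0.59 ± 0.15), a share close to the 3.14% of all genes, and 0 rose at the other times.

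Markers of other liver cells were read beside these results, since Saa3 is not specific to hepatocytes. Summed on the linear scale, 11 measured macrophage markers of 16 came to 835 to 1160 on the arrays at 12 to 24 h, 1320 to 1350 at 48 h and 968 to 1230 in controls. Over the 22 arrays 7 of the 11 correlated negatively with Saa3, down to r = -0.641 for Clec4f, a Kupffer cell marker. The other 4 correlated positively, namely Ccr2 (0.71), Ctss (0.688), Cd68 (0.568) and Itgam (0.224). Ccr2, Itgam and Marco were below the array median on all arrays, and Ccr2 lay between 3.15 and 3.76. Of the 11, Ctss rose at 12 h (0.64 ± 0.12; limma, adjusted p = 0.0112), when 1.31% of all genes did. From controls to 12 to 24 h in SOCS1-/-IFNg-/- livers, Clec4f changed by -0.81 ± 0.16 (limma, adjusted p = 0.0203), where 0.691% of all genes fell. The 13 measured neutrophil markers of 14 came to 738 to 852 at 12 to 24 h and 767 to 868 in controls, and 10 of the 13, S100a8 and S100a9 among them, were below the array median on all arrays. Of 6 measured adipocyte markers of 8, which came to 1080 to 2690 at 12 to 24 h and 2800 to 3370 in controls, Adipoq and Fabp4 were below the array median on all arrays. That sum was carried by Car3, which ran from 9.08 to 11.66 and fell by 1.69 ± 0.26 at 12 to 24 h in SOCS1-/-IFNg-/- livers (limma, adjusted p = 0.00854), while the list's median difference there was -0.07. The 12 measured hepatocyte markers of 14 came to 43200 to 49300 at 12 to 24 h and 47700 to 50500 in controls. Over the 22 arrays 8 of them also correlated negatively with Saa3, down to r = -0.81 for Cps1, and 4 positively. Of these 12, Tat changed by -1.04 ± 0.16 at 4 h (limma, adjusted p = 0.00141) and Fgb by 0.50 ± 0.11 (adjusted p = 0.0143). The part of macrophages in the Saa3 result was not tested.

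RNA quality was read from the 3-prime minus 5-prime difference of control probe sets. For Actb it was 0.33 to 1.2 at 0.5 to 4 h, 0.47 to 1.13 at 12 to 24 h, 1.33 to 1.56 at 48 h, 0.66 to 0.83 after PBS and 1.31 to 1.32 in untreated livers, and for Gapdh 0.42 to 0.75, 0.39 to 1.16, 0.50 to 0.83, 0.37 to 0.55 and 0.66 to 0.85 in the same order. Over the 22 arrays the Actb difference correlated with Saa2 at r = -0.422 and the Gapdh difference at r = -0.139. The part of RNA quality in the PBS and 48 h results was not tested.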

How the data were processed

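RNA abundance was measured on 1 array per liver sample, 22 arrays in all. The deposited values are log2 expression per probe set, already normalized between arrays by the authors. Per the submitters' processing notes affy was used, with settings not given in the sources used here. Values ran from 1.73 to 13.5 and array medians from 5.64 to 5.71. Of 12488 probe sets, 66 control probe sets were left out, 10833 carried 1 symbol, 396 several and 1193 none, and 0 symbols needed updating through RefSeq. The probe set with the highest mean stood for a gene. No pair of arrays was identical (highest r 0.996).

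Tests used limma 3.58.1 in R 4.3.3 with Benjamini-Hochberg adjustment over 8251 genes. Responses came from an additive model of condition and genotype (10 residual degrees of freedom), genotype differences from 11 within-pair differences by phase (7), and responses within a genotype from genotype by phase (14). In the fits by phase, livers of different times stood in for replicates, so each p reflects spread between arrays alone, true change over time included. Precision is limited by their number. The fitting code was tested on simulated data before use.

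The members, the lists and the alternatives were chosen with earlier results of these data known. Named genes are the members, the 5 genes most like each by Pearson r, up to 4 called genes of each list by size, Socs1 and defining cell markers. Saa4, Crp, Ptx3 and the Saa1 sequence were named outside that rule, with values seen. Promoters are from RefSeq (GRCm38.p6). The 3 members other than Saa-ps matched an entry, and identity was counted in global alignments made with Biopython 1.88. Alternatives were other controls, array weights, trend and robust fitting, quantile normalization, a filter at a mean log2 of 5, other probe sets, other phases, no pairing, and each condition left out in turn.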

Additional observations from a re-analysis of the deposited data

Results flagged for a closer look

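The change of Saa-ps at 12 h after PBS against untreated livers had opposite signs, 0.29 in SOCS1-/-IFNg-/- and -0.04 in IFNg-/- livers, a difference of 0.33 between single arrays that was not tested.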

How the results depend on the processing

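Of 313 repeats of the called differences of single members under other settings, 263 kept direction and call and 50 lost the call. Of 351 repeats of the counts of members called, 306 stayed within 1.5 times. When the untreated arrays were not among the controls, members called numbered 0 of 4 at 2 h, 2 at 12 h, and 1 at both 16 and 24 h. Array weights gave 2 at 2 h, 1 at 4 h, 2 for interferon-gamma against PBS at 12 h and 1 for PBS 12 h against untreated. Trend and robust fitting gave 0 at 2 h, 1 at 24 h, and 0 for interferon-gamma against PBS at 12 h, for the genotype difference over all pairs and for 12 to 24 h in SOCS1-/-IFNg-/- livers. The other Saa2 probe set gave 0 at 2 h and 0 for interferon-gamma against PBS at 12 h. The filter on low values removed Saa-ps. Fitting without pairing left 0 for the genotype difference, and phases with 48 h joined to 12 to 24 h left 0 in SOCS1-/-IFNg-/- livers. With each condition left out in turn, counts ran from 0 to 1 at 2 h, 1 to 4 at 4 h, 2 to 4 at 12 h, 1 to 4 at 16 h and 1 to 3 at 24 h. They ran from 0 to 1 for interferon-gamma against PBS at 4 h and 0 to 2 at 12 h, from 0 to 1 for the genotype difference over all pairs, and 0 to 3 for 12 to 24 h in SOCS1-/-IFNg-/- livers. The causes were not tested.

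Differences that changed sign lay between -0.50 and 0.58 as reported, and none was called. Without the PBS 12 h arrays the 1 h response was 0.20 for Apcs and 0.04 for Saa3, and the 48 h response of Apcs 0.09. Without the untreated arrays the 1 h response of Saa-ps was -0.03. With array weights the 0.5 to 4 h difference from controls in SOCS1-/-IFNg-/- livers was -0.23 for Apcs, -0.05 for Saa2 and -0.24 for Saa3. The other Saa2 probe set gave -0.08 for the genotype difference over all pairs and 0.16 at 1 h, and the joined phases -0.45 for the late genotype difference of Saa2. With each condition left out in turn, the 1 h response ran from -0.36 to 0.20 for Apcs, -0.03 to 0.14 for Saa-ps, -0.63 to 0.18 for Saa2 and -0.56 to 0.04 for Saa3, and the 48 h response from -0.48 to 0.09 for Apcs and -0.09 to 0.08 for Saa-ps. In SOCS1-/-IFNg-/- livers the 0.5 to 4 h difference ran from -0.27 to 0.46 for Apcs, -0.20 to 1.03 for Saa2 and -0.12 to 0.39 for Saa3, and in IFNg-/- livers from -0.17 to 1.00 for Saa3. The genotype difference over all pairs ran from -0.05 to 0.16 for Saa-ps and -0.21 to 0.26 for Saa3, in controls from -0.11 to 0.07 for Saa3, at 0.5 to 4 h minus controls from -0.60 to 0.01 for Saa-ps and -0.80 to 0.06 for Saa3, and at 12 to 24 h minus controls from -0.05 to 0.59 for Apcs and -0.37 to 0.46 for Saa2. Counts over all genes at 4 h ran from 84 to 495 against 415, and for the genotype difference over all pairs from 0 to 105 against 27. At 2 h they ran from 86 to 420 against 137. They ran from 6 to 32 against 9 for interferon-gamma against PBS at 12 h, and from 7 to 198 against 9 for PBS 12 h against untreated.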

Other observations

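Negative acute phase proteins are those that hepatocytes release less of in inflammation, and some genes of that list were called within a genotype. Of 16 measured of 20, 0 were called at any single time with both genotypes together, and 3 fell from controls to 12 to 24 h in SOCS1-/-IFNg-/- livers, where 0.691% of all genes fell. They were Serpina6, which encodes the corticosteroid-binding globulin (-1.03 ± 0.18; limma, adjusted p = 0.011), Cps1 (-0.42 ± 0.09, adjusted p = 0.037), and Serpinc1, which encodes antithrombin (-0.31 ± 0.07, adjusted p = 0.028). Cps1 is an enzyme of the urea cycle rather than a released protein, and it is on the hepatocyte marker list as well. In IFNg-/- livers 0 of the 16 were called, and the genotype difference of that change was not called for any of the 16 either. The median of the list was -0.16 in SOCS1-/-IFNg-/- and -0.01 in IFNg-/- livers, against 0.01 and -0.02 over all genes.

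Macrophage markers were higher at 48 h than at 12 to 24 h for 3 of 11 measured genes, when 0.558% of all genes rose. They were Cd5l, a secreted macrophage protein (1.31 ± 0.29; limma, adjusted p = 0.0371), Clec4f (0.77 ± 0.18, adjusted p = 0.0477) and Csf1r, the receptor of the macrophage growth factor (0.73 ± 0.13, adjusted p = 0.00853). The lipid transfer gene Pltp, of the high density lipoprotein list, rose in the same comparison (0.69 ± 0.16, adjusted p = 0.044).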
